A study of Rattus norvegicus with 2 samples.

Results

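Genes of the families that make, degrade and act through cyclic AMP were examined in the rat basilar artery. They were taken by gene symbol, as all genes whose symbol starts with Pde and a digit, Adcy, Prkac, Prkar or Akap, leaving out Pde5a and the Adcyap genes. Of 15037 genes with a named probe set, 50 were members. They were 20 phosphodiesterases, 9 adenylyl cyclases, 6 subunits of protein kinase A (PKA), 14 A-kinase anchoring proteins (AKAPs) and Pde4dip. Classes were set by symbol, so not every gene counted as a phosphodiesterase encodes the enzyme or acts on cyclic AMP. Pde6d, for example, encodes a carrier of prenylated proteins. Pde4dip met the symbol rule but encodes myomegalin, a protein of the centrosome and Golgi that binds phosphodiesterase 4D and is no phosphodiesterase itself. Each member was read by 1 probe set. Another 7 genes of these families, Adcy9, Akap11, Akap17b, Pde11a, Pde12, Pde6c and Pde6g, had no named probe set in the annotation used and were not analysed here.

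For the ligation array, basilar arteries were collected from 4 rats whose common carotid arteries (CCAs) had been tied on both sides 4 weeks earlier, and their RNA was pooled in equal amounts. For the sham array, the same was done with 4 rats whose CCAs had been exposed but not tied. All animals were male Sprague-Dawley rats of 13 months by the labels, and 50 ng of RNA was labeled for each Clariom S array, which reads annotated genes through sets of short probes. Each group is thus a single array with no replicates, and the values carry no SD and no test. Each difference is one between 2 pools.

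Adenylyl cyclases make cyclic AMP when a receptor coupled to the G protein Gs is occupied, and cyclic nucleotide phosphodiesterases break it down. Cyclic AMP releases the catalytic subunits of PKA from its regulatory subunits, and AKAPs hold the regulatory subunits, often together with a phosphodiesterase, at particular places in the cell. In arterial smooth muscle this pathway is known for relaxation of the vessel.

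The members furthest apart between the pools came from different steps of the pathway, and all of them were lower after ligation. Akap6, Pde4dip, Adcy5 and Pde3a were under 0.5-fold. These were 4 of 50 members, or 8%, against 2.97% of all named genes. Only Pde2a was over 2-fold higher, which is 1 of 50 members, or 2%, against 4.04% of all named genes, and its signal was within background on both arrays. The remaining 45 members were less than 2-fold apart, and 40 of the 50 were within 1.5-fold in either direction. Past 1.5-fold, 7 members were lower and 3 were higher (14% and 6%), against 10.8% and 12.4% of all named genes. Adcy10 among the lower and Pde2a among the higher were within background on both arrays. The median difference, as log2 signal of ligation minus sham, was -0.13 over the 50 members and -0.01 over all named genes. After centring on the housekeeping genes, 7 of 50 members were under 0.5-fold (14%, against 4.14% of all named genes) and 1 was over 2-fold higher (2%, against 2.94%), so both shares of decreases depend on the scaling. Those 7 also included Adcy10. The other scalings gave from 4 to 6 members under 0.5-fold (8% to 12%, against 1.4% to 3.47% of all named genes). All 8 smooth muscle markers were lower after ligation in the same pools (median -1.32), against 51.1% of all named genes, and their part in these results was not tested. In bulk RNA, fewer cells of a type and less RNA per cell cannot be told apart.

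Background was set by 23 antigenomic probe sets, which match no rat transcript. The brightest of them had a signal of 157 on the ligation array and 151 on the sham array. Of the 50 members, 32 were above it on both arrays, none on only 1 array, and 18 were within it on both. Of all 15037 named genes, 7083 were above it on both arrays, 668 on only 1, and 7286 were within it on both. All 6 PKA subunits were above it, as were 11 of 20 phosphodiesterases, 4 of 9 adenylyl cyclases, 10 of 14 AKAPs and Pde4dip. The 4 members under 0.5-fold were among these 32 and none of the 32 was over 2-fold higher, against 3.5% and 6.19% of the 7751 named genes above background on at least 1 array. A signal within background does not show that a gene is not expressed.

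**Figure D1:**
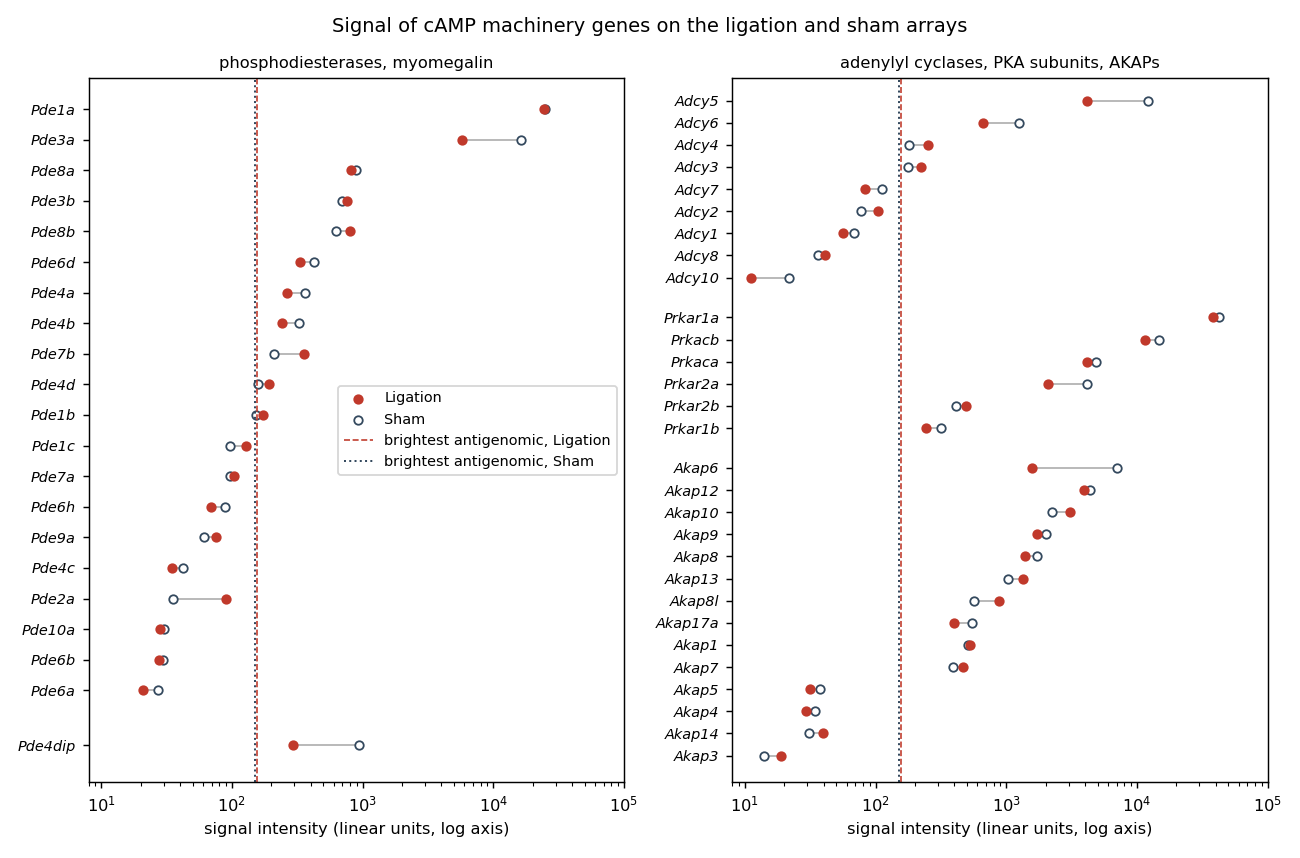
Signal intensity (log axis) of the 50 members on the ligation array (filled points) and the sham array (open points), grouped by class and ordered by sham signal, with dashed and dotted lines at the brightest antigenomic probe set of each array (157 for ligation, 151 for sham). The pools are far apart for Akap6, Adcy5, Pde3a and Pde4dip and close for Pde1a and Prkar1a, and 18 members lie left of the lines on both arrays.

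The stretch upstream of the gene start is shown for the 4 members under 0.5-fold, so that it can be seen whether they share regulatory letters there. Each window holds the 250 bases before an annotated start in RefSeq (build GRCr8), written 5′ to 3′ on the gene's strand, and Pde4dip has one window for each of 2 starts. Capitals mark the GC box GGGCGG on either strand.
Akap6, chr6:75919263-75919512, plus strand: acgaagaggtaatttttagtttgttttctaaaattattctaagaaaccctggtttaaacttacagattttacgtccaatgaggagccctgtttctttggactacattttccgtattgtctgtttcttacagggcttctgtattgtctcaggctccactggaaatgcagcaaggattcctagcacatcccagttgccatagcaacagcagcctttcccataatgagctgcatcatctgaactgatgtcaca
Pde3a, chr4:175904026-175904275, plus strand: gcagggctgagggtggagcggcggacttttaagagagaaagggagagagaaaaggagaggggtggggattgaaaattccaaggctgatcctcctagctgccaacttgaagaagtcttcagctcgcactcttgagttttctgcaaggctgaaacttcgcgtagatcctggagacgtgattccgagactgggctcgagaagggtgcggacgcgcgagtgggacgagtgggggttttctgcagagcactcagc
Adcy5, chr11:79123344-79123593, minus strand: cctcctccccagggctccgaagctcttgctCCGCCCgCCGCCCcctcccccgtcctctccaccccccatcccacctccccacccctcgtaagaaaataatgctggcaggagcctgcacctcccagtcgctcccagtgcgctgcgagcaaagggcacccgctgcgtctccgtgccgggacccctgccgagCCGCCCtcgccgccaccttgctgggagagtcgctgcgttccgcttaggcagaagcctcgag
Pde4dip, first start, chr2:188116830-188117079, minus strand: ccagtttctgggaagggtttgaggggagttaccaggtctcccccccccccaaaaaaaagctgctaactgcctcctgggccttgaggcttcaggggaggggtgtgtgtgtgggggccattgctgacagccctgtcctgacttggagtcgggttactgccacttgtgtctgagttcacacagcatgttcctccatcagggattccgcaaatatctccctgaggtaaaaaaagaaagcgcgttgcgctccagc
Pde4dip, second start, chr2:188178486-188178735, minus strand: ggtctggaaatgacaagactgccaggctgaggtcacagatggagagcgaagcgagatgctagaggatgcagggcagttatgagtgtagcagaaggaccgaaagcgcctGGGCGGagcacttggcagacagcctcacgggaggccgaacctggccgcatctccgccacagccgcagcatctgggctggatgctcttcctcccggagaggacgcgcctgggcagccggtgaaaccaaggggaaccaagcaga

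Adcy5 had 3 GC boxes in its window and a GC content of 70%, and the second Pde4dip window had 1 GC box. The windows of Akap6 (40.8% GC) and Pde3a (55.6% GC) held none. None of the 5 windows held the cyclic AMP response element TGACGTCA, its core TGACG, which lies within it, or a CArG box, the motif read by serum response factor, on either strand. In all, 39 of the 50 members had at least 1 window in this table, with 51 windows between them, several of which belong to the same gene. A GC box was in 25 of the 51 windows (49%) and in 30.5% of all 33469 windows, the core was in 8 (15.7%) and in 18.2% of all, and the full element was in 1, that of Akap17a, and in 1.59% of all. No member window had a CArG box, which 1.5% of all windows held. Such matches describe these letters in this window only, and a gene with several starts may be read from another one.

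Among adenylyl cyclases, the calcium-inhibited pair Adcy5 and Adcy6 was lower after ligation. Adcy5 had a signal of 4132 in the ligation pool and 12129 in the sham pool, a difference of -1.55 on the log2 scale, or 2.94-fold lower. Adcy6 had 663 in the ligation pool and 1257 in the sham pool, 1.90-fold lower, which is short of 2-fold. The other cyclases above background were slightly higher in the ligation pool. Adcy4, a cyclase stimulated by G protein βγ subunits, had 251 after ligation and 181 after sham surgery (log2 difference 0.47). Adcy3, known for its part in olfaction, had 223 in the ligation pool and 175 in the sham pool (0.35). Both stood close to the background of 157 and 151. Adcy1, Adcy2, Adcy7, Adcy8 and the soluble, bicarbonate-sensitive Adcy10 were within background on both arrays, with log2 differences between -0.94 for Adcy10 and 0.43 for Adcy2. The class median was -0.29 over 9 genes.

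Phosphodiesterases went in both directions, with a class median of -0.05 over 20 genes. Pde3a, which breaks down cyclic AMP, is inhibited by cyclic GMP and is the form of family 3 known from smooth muscle, heart and platelets, had a signal of 5778 in the ligation pool and 16299 in the sham pool. That is a log2 difference of -1.50, or 2.82-fold lower. Its relative Pde3b, known from fat and liver, had 760 after ligation and 694 after sham surgery (0.13).

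Pde1a, a calmodulin-dependent phosphodiesterase of both cyclic nucleotides that is also known from smooth muscle, had a signal of 24610 in the ligation pool and 24857 in the sham pool. Its log2 difference was -0.01. Pde1a and Pde3a were both well above background and far below the highest gene signal of an array (999963 for ligation and 998298 for sham), and Pde3a but not Pde1a was apart between the pools. Pde1b had 174 in the ligation pool and 154 in the sham pool (0.18), both close to the background of 157 and 151. Pde1c was within background (128 in the ligation pool and 96.6 in the sham pool). Pde5a, which breaks down cyclic GMP and is not counted among the members, had 23736 after ligation and 61309 after sham surgery, 2.58-fold lower.

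Family 4, which is specific for cyclic AMP, showed small differences in both directions. Pde4a had a signal of 265 in the ligation pool and 365 in the sham pool (log2 difference -0.47), and Pde4b had 242 in the ligation pool and 324 in the sham pool (-0.42). Pde4d had 191 after ligation and 157 after sham surgery (0.28), the sham signal being just above the background of 151. Pde4c was within background. Of the other forms specific for cyclic AMP, Pde7b had 355 in the ligation pool and 210 in the sham pool, 1.69-fold higher, the largest increase among phosphodiesterases above background. Pde8b had 801 after ligation and 621 after sham surgery (0.37), and Pde8a had 817 after ligation and 898 after sham surgery (-0.14). Pde7a was within background, with a log2 difference of 0.10. No gene of families 4, 7 or 8 passed 2-fold.

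Pde2a, the phosphodiesterase stimulated by cyclic GMP and known from endothelium and brain, had a signal of 90.7 in the ligation pool and 35.7 in the sham pool. Its fold of 2.54 rests on signals that were both within background, and its log2 difference of 1.35 became 0.63 with 64 added to each signal. The photoreceptor genes Pde6a, Pde6b and Pde6h, as well as Pde9a and Pde10a, were also within background. Pde6d, which encodes a carrier of prenylated proteins, was above it, with 331 after ligation and 427 after sham surgery (log2 difference -0.37).

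Among PKA genes, 5 of 6 had a lower signal in the ligation array, by amounts from -0.14 to -0.99 on the log2 scale, and the median was -0.29. Over all named genes, 51.1% had a lower signal. All 6 PKA genes were above background, and of the 7751 named genes above it on at least 1 array, 3373 were lower and 4371 higher. The catalytic subunits differed little. Prkaca had 4146 in the ligation pool and 4869 in the sham pool (log2 difference -0.23), and Prkacb had 11431 after ligation and 14628 after sham surgery (-0.36). Prkar1a, the widely expressed type I regulatory subunit, had 38120 after ligation and 42107 after sham surgery (-0.14). Prkar1b, known from neurons, had 242 in the ligation pool and 315 in the sham pool (-0.38).

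The type II regulatory subunits, through which most AKAPs hold the kinase, went in opposite directions. Prkar2a had a signal of 2092 in the ligation pool and 4152 in the sham pool. This is 1.98-fold lower, just short of 2-fold, and under 0.5-fold once the arrays were centred on their medians (log2 difference -0.99 as deposited, -1.04 after centring). Prkar2b, known from fat and brain, had 493 after ligation and 409 after sham surgery (0.27). Whether the 2 genes differ from each other was not tested.

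**Figure D2:**
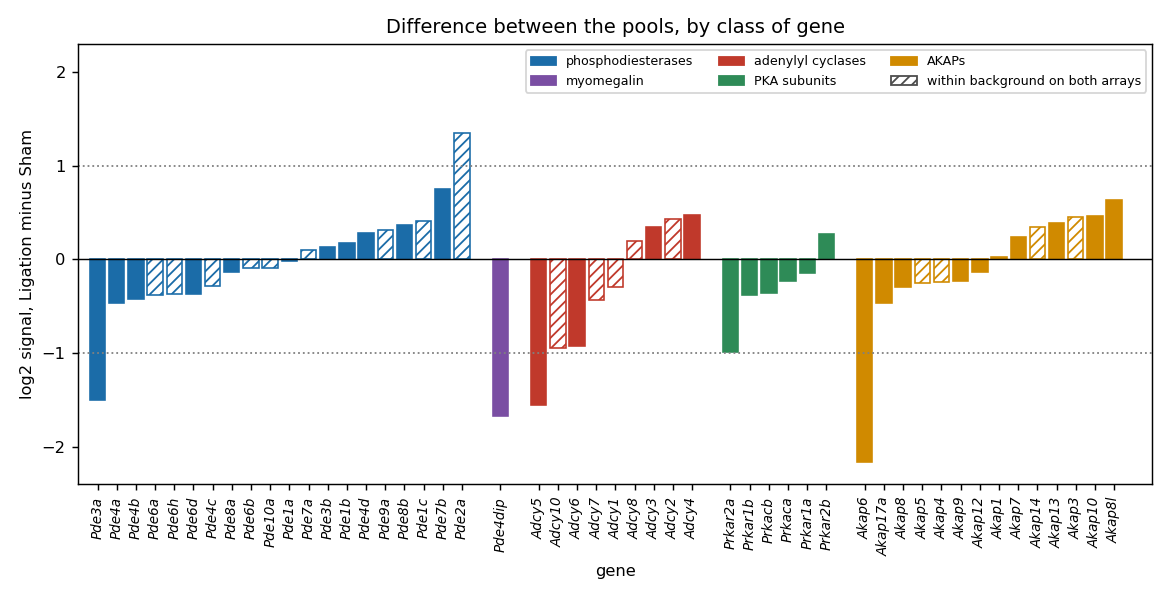
Difference in log2 signal, ligation minus sham, for each of the 50 members (bars), coloured by class and sorted within it, with dotted lines at 2-fold in either direction. Hatched bars are members within background on both arrays. Each of the adenylyl cyclases, phosphodiesterases and AKAPs has 1 gene under the lower line (Adcy5, Pde3a and Akap6), Pde4dip is below it as well, and Pde2a, hatched, is the only bar above the upper line.

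Akap6 had the largest difference of all members. Its product, also called mAKAP, holds PKA at the nuclear envelope of muscle cells together with a form of phosphodiesterase 4D. Akap6 had a signal of 1563 in the ligation pool and 6991 in the sham pool, a log2 difference of -2.16, or 4.47-fold lower. Pde4dip had 293 in the ligation pool and 937 in the sham pool, a log2 difference of -1.68, or 3.19-fold lower.

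No other AKAP passed 2-fold, and 7 of 14 had a higher signal in the ligation array. For comparison, 51.1% of all named genes had a lower signal there. Of the 10 AKAPs above background, 5 were higher and 5 lower. Of the 7751 named genes above background on at least 1 array, 4371 were higher and 3373 lower. Akap12, or gravin, which binds at the plasma membrane, had 3962 after ligation and 4343 after sham surgery (log2 difference -0.13). Akap10, which binds both types of regulatory subunit, had 3100 in the ligation pool and 2242 in the sham pool (0.47). Akap13, which also activates the GTPase RhoA, had 1350 after ligation and 1028 after sham surgery (0.39). These 3 anchors were all within 1.5-fold between the pools, while Akap6 was not.

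Anchors of other compartments were close between the pools as well. Akap9, at the Golgi and centrosome, had 1719 in the ligation pool and 2016 in the sham pool (log2 difference -0.23), and mitochondrial Akap1 had 524 after ligation and 513 after sham surgery (0.03, with a sign that turned under some scalings). Akap7, which in heart muscle joins PKA to calcium channels and phospholamban, had 466 after ligation and 394 after sham surgery (0.24). The nuclear anchor Akap8 had 1389 after ligation and 1704 after sham surgery (-0.30), whereas its homologue Akap8l had 875 after ligation and 565 after sham surgery (0.63, or 1.55-fold higher). Akap17a, linked to RNA splicing, had 399 in the ligation pool and 549 in the sham pool (-0.46). Akap3 and Akap4, known from sperm, Akap5 and Akap14 were within background. The class median was -0.05.

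**Figure D3:**
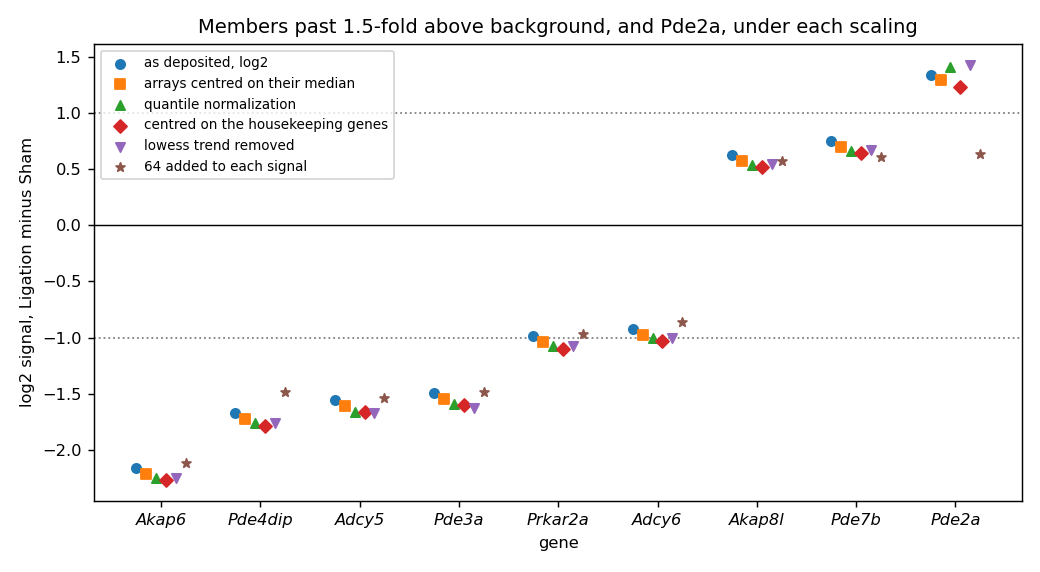
Difference in log2 signal, ligation minus sham, of 9 members under 6 ways of scaling the arrays (marker shapes), with dotted lines at 2-fold. Akap6, Pde4dip, Adcy5 and Pde3a stay below the lower line under each of them, Prkar2a and Adcy6 lie on either side of it, and Pde2a drops to 0.63 with 64 added to each signal.

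The rest of the pathway was described with 50 further genes, of which 44 had a probe set with a symbol. In this set, 6 were under 0.5-fold (13.6%, against 2.97% of all named genes) and 4 were over 2-fold higher (9.09%, against 4.04%). The alternative scalings were not applied to these genes, and both shares may depend on the scaling. The median difference was -0.08. Gnas, the α subunit of Gs that stimulates the cyclases, had a signal of 19063 in the ligation pool and 20575 in the sham pool (log2 difference -0.11). Gnai1, an inhibitory α subunit, had 2798 in the ligation pool and 6246 in the sham pool, 2.23-fold lower, and the other inhibitory subunits Gnai2 and Gnai3 had log2 differences of -0.13 and 0.33.

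Of 17 genes for receptors coupled to Gs and their accessory proteins, 3 were over 2-fold higher (17.6%, against 4.04% of all named genes) and 1 was under 0.5-fold (5.88%, against 2.97%). Of the 3, Adora2b and Calcrl were only just past 2-fold (log2 differences 1.01 and 1.03). Both passed it by less than the housekeeping median of 0.11, so the count of 3 depends on the scaling. Calcrl forms the receptor of the dilator peptide CGRP when paired with Ramp1 and that of adrenomedullin when paired with Ramp2. Ramp1 had a signal of 414 in the ligation pool and 1335 in the sham pool, 3.23-fold lower. Ramp2 had 2260 after ligation and 874 after sham surgery, 2.59-fold higher, and Calcrl had 3948 after ligation and 1939 after sham surgery, 2.04-fold higher. The accessory proteins of the 2 receptors were thus apart in opposite directions. The adenosine receptor gene Adora2b had 187 after ligation and 93.1 after sham surgery, the sham signal being within background. The β1 adrenergic receptor gene Adrb1 had 240 in the ligation pool and 225 in the sham pool.

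Of 7 genes for other effectors of cyclic AMP and PKA inhibitors, 2 were under 0.5-fold (28.6%, against 2.97% of all named genes) and none was over 2-fold higher. Pkia, an inhibitor that binds the free catalytic subunit, had a signal of 1107 in the ligation pool and 3784 in the sham pool, 3.42-fold lower. Popdc2, which encodes a membrane protein that binds cyclic AMP, had 340 after ligation and 934 after sham surgery, 2.74-fold lower. Rapgef3, the exchange factor Epac1 that cyclic AMP activates directly, had 996 after ligation and 747 after sham surgery, 1.33-fold higher.

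Of 6 genes for PKA substrates and phosphatase regulators, 2 were under 0.5-fold (33.3%, against 2.97% of all named genes) and 1 was over 2-fold higher (16.7%, against 4.04%), within background. Hspb6, a small heat shock protein of smooth muscle, and Pln, or phospholamban, the regulator of the calcium pump of the sarcoplasmic reticulum, were 4.12-fold and 3.16-fold lower. Hspb6 had 1969 in the ligation pool and 8116 in the sham pool, and Pln had 102279 after ligation and 322883 after sham surgery. Ppp1r1a, an inhibitor of protein phosphatase 1, had 13789 in the ligation pool and 9609 in the sham pool, 1.44-fold higher. Lipe, the hormone-sensitive lipase, had 103 after ligation and 29.3 after sham surgery, both within background. None of 7 genes of the CREB family and its coactivators passed 2-fold. Creb1 had 1234 in the ligation pool and 1333 in the sham pool.

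Markers of cell types differed between the same pools. For comparison with the counts below, 2.97% of all named genes were under 0.5-fold and 4.04% over 2-fold higher, and 51.1% had a lower signal after ligation. Of the 8 smooth muscle markers, 5 were under 0.5-fold, and the list had a summed signal of 1858804 in the ligation pool and 2730534 in the sham pool. Myh11 and Smtn, defining genes of contractile smooth muscle, were far above background on both arrays. Myh11 had 126445 after ligation and 382215 after sham surgery, and Smtn had 16773 after ligation and 81004 after sham surgery. The decreases were uneven, as Cnn1, Acta2 and Tagln were only 1.45-fold, 1.38-fold and 1.08-fold lower. Endothelial markers were higher in 7 of 7, with a median of 0.97 and a summed signal of 164692 after ligation and 90586 after sham surgery. Astrocyte markers were higher in 8 of 8 and over 2-fold higher in 5, with a median of 1.32. Aqp4 had 6060 after ligation and 350 after sham surgery, and Gfap had 29760 after ligation and 1908 after sham surgery, while the sum of the list, 326299 after ligation and 205205 after sham surgery, was mostly that of Gjb6. Oligodendrocyte and Schwann cell markers were over 2-fold higher in 6 of 6, with a median of 2.03, summing to 16753 after ligation and 2448 after sham surgery. Macrophage and microglia markers were higher in 8 of 8 (median 0.92, sum 38580 after ligation and 20323 after sham surgery), as were fibroblast and leptomeningeal markers in 8 of 8 (median 0.45, sum 1997142 after ligation and 1738856 after sham surgery). The smooth muscle and fibroblast sums are led by genes near the highest signal of the array, such as Ptgds (995512 after ligation and 993855 after sham surgery), where a difference can be compressed. Neuronal markers were higher in 6 of 8 (median 0.30, sum 4945 after ligation and 4473 after sham surgery). Of the 7 ependymal and choroid plexus markers, 5 were within background on both arrays, and the other 2, Ttr and Clic6, were under 0.5-fold. No marker signal was at 0, and within background on both arrays were also Aldh1l1, Mog, Gap43, Nefl and Cd163. The part of these cell types in the differences of Akap6, Adcy5, Pde3a, Pde4dip and Prkar2a was not tested. With 1 array per group, array and group cannot be told apart.

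**Figure D4:**
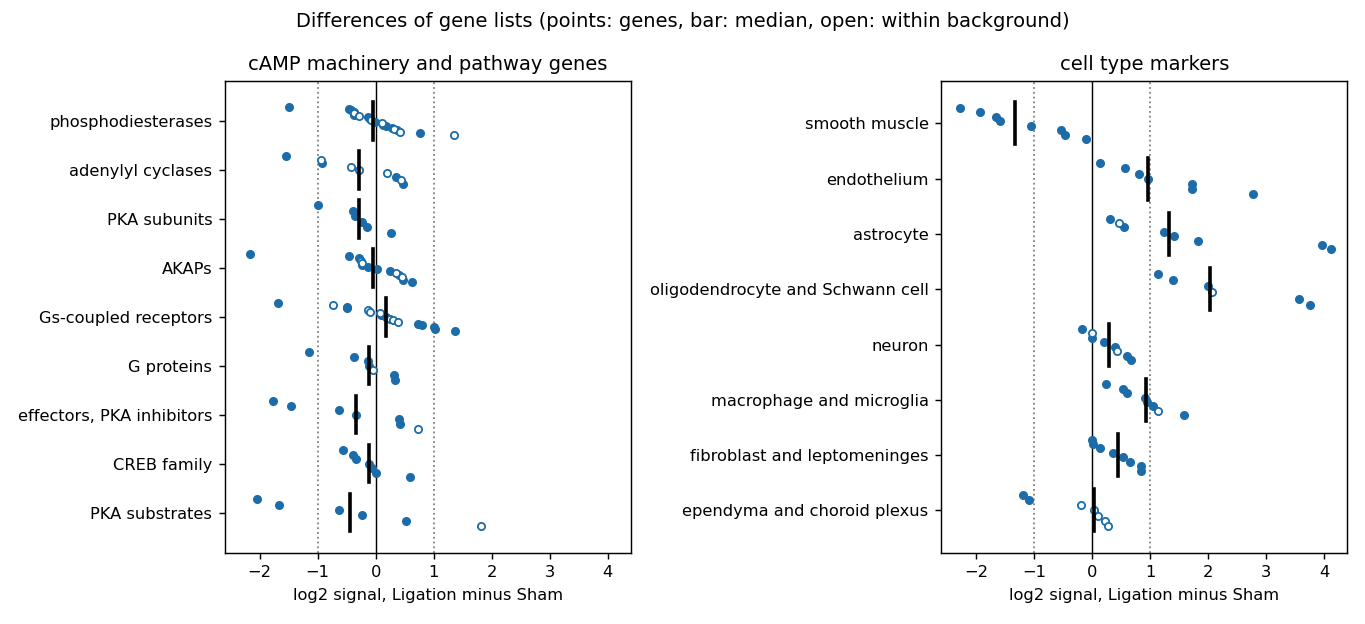
Difference in log2 signal, ligation minus sham, of single genes (points, open where within background on both arrays) and list medians (black bars), for the member classes and 5 groups of pathway genes on the left and for 8 lists of cell type markers on the right. Smooth muscle markers lie to the left of 0 with a median of -1.32, as do Akap6, Adcy5 and Pde3a, while markers of endothelium, glia and macrophages lie to the right.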

How the data were processed

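Expression in basilar arteries was read with 2 Clariom S arrays, 1 pool of 4 rats per group. The authors deposited a linear signal intensity per probe set, made by RMA in Affymetrix Expression Console according to the submitters' processing notes. The paper's methods give the Microarray Data Analysis Tool. RMA usually quantile-normalises probes and returns log2 values, whereas these values are linear and their medians over gene probe sets are 110 for ligation and 106 for sham, so what was done after RMA is not known. The genome build is not given in the sources used here. Log2 of the deposited intensity was taken with no further scaling, probe sets of a gene were averaged, and differences were ligation minus sham. All 15049 named probe sets matched by Entrez identifier to the RefSeq annotation of GRCr8, and 8139 gene probe sets had no single gene symbol in the annotation used here.

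A gene was within background where its signal was no higher than the brightest antigenomic probe set of that array. Thresholds were 2-fold and 0.5-fold, those the study applied to these arrays. With 1 array per group no test was run, and precision is limited by the number of arrays. The members and gene lists were chosen with earlier results of these data known. Named were members past 2-fold, those past 1.5-fold above background on both arrays, and the 3 brightest of each class, and the others were named after their values were seen. Of the other pathway genes, those past 2-fold and above background were named, with Gnas and Pde5a. Adora2b, Lipe, Gnai2, Gnai3, Rapgef3, Ppp1r1a, Adrb1 and Creb1 were added after their values were seen.

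The alternative scalings were median centring, quantile normalization, centring on 12 housekeeping genes, removal of the trend on the mean by lowess (fraction 0.3), and 64 added to each signal. Members within the median, or within the brightest, antigenomic probe set on both arrays were also left out, with no signal changed. Other alternatives were the brightest probe set per gene, 1.5-fold in place of 2-fold, and a mean in place of a median. As each member had 1 probe set, taking the brightest could not change its value. The counting of Pde4dip with a class was an alternative chosen after seeing the data. In place of a spread between replicates, the SD of 0.37 across the housekeeping differences was used to compare single genes and class medians between alternatives. For class medians this is a wide margin, and that of phosphodiesterases changed sign within it. The housekeeping differences ran from -0.50 to 0.83 on the log2 scale, a range that holds the increases of Pde7b and Akap8l. The scaling steps were tested on simulated data. PCR, images and rabbits of the study were not analysed here. The work used pandas 2.3.3, numpy 2.4.6, statsmodels 0.14.6 and matplotlib 3.10.9 in Python 3.11.15.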

Additional observations from a re-analysis of the deposited data

How the results depend on the processing

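Akap6, Pde4dip, Adcy5 and Pde3a were under 0.5-fold under each scaling tried, with log2 differences from -2.27 to -2.12, -1.78 to -1.49, -1.68 to -1.54 and -1.63 to -1.49. The count of members under 0.5-fold was 4 as deposited and 4 with 64 added to each signal. It was 5 after median centring, 6 after quantile normalization and 6 with the lowess trend removed. It was 7 after centring on the housekeeping genes (their median was 0.11) and 7 at a threshold of 1.5-fold in place of 2-fold. Each count of 7 included Adcy10, which was within background on both arrays. The count over 2-fold higher was 1 as deposited, 3 at 1.5-fold, and 0 with 64 added to each signal. Leaving out members within the median, or within the brightest, antigenomic probe set on both arrays also gave 0. That step removes Pde2a itself, so its count of 0 is no check on Pde2a. Prkar2a ranged from -1.10 to -0.97 and Adcy6 from -1.03 to -0.86, so both lay on either side of 2-fold. Of 33 members followed under the alternatives, the sign changed for Akap1 alone (-0.08 to 0.03). The median ran from -0.43 to -0.14 for adenylyl cyclases, from -0.40 to -0.27 for PKA subunits and from -0.16 to -0.03 for AKAPs. The median of phosphodiesterases was -0.05 as deposited and turned to 0.05 with the lowess trend removed and 0.04 with quantile normalization. It was 0.06 over the fewer genes left without those within the median antigenomic probe set on both arrays. It thus has no direction.

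Of the 23 antigenomic probe sets, 11 were under 50 and 12 over 100 on each array, and 4 had the same value on both arrays. They were not matched to the members on sequence. No paired analysis was possible because each group has 1 array, and for the same reason no sample was left out in turn.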

Other observations

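Anchoring proteins of PKA that carry other names were looked at in a list of 14 genes written after the values of the members were seen, and 11 had a named probe set. Synm, which encodes the intermediate filament protein synemin, had a signal of 581 in the ligation pool and 2478 in the sham pool, 4.27-fold lower. Arfgef2, an exchange factor for ARF GTPases at the trans-Golgi, had 502 after ligation and 1032 after sham surgery, 2.06-fold lower. None of the 11 was over 2-fold higher, against 4.04% of all named genes, and 2 were under 0.5-fold (18.2%, against 2.97%). Above 0 were 7 of the 11, with a median log2 difference of 0.42, and 51.1% of all named genes were below 0. Of the 8 above background on at least 1 array, 4 were above 0 and 4 below, with a median of 0.05. Of the 7751 such named genes, 4371 were above 0 and 3373 below, with a median of 0.08. Ezr, or ezrin, which links membranes to actin, had 738 in the ligation pool and 446 in the sham pool, 1.65-fold higher, and Lrba had 803 after ligation and 865 after sham surgery. Gskip, Cbfa2t3 and Rab32 were within background on both arrays.

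Adcyap1, which encodes the peptide PACAP, was within background on both arrays, with 64.2 after ligation and 55.5 after sham surgery. Its receptor gene Adcyap1r1 had 159 in the ligation pool and 142 in the sham pool, the sham signal being within background.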
